A study of Mus musculus with 5 samples.

Results

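The genes described here are 44 genes of the cell division cycle and of DNA replication, read from the mouse kidney papilla, the inner tip of the medulla. They were chosen by name, as every probe whose gene name in the array tables, or whose accession, is that of a member, which gave 72 probes for all 44 genes. Of these genes 10 act at the G1/S transition, 11 in DNA replication, and 23 in G2, mitosis and cytokinesis. In all, 17422 genes were tested on the arrays, and 37 of the 44 members were among them. Papilla cells came from H2B-GFP mice of 2 to 3 months that had received a doxycycline pulse in embryonic life, so that both groups carried the transgene and the pulse and were parted by their fluorescence. The titles of all 5 samples call them control kidney papilla. The label-retaining cells, which kept the nuclear GFP through the chase, are called GFP+, and the cells that lost or never had it GFP-. Both were sorted live by FACS after collagenase digestion, in 5 biological replicates, and each replicate was 1 two-colour array on which, per the labels, Cy5 marked the GFP+ and Cy3 the GFP- sample. The sources used here do not give the promoter that drives the transgene, the number of cells sorted or any pooling of mice. The label marks a division history, not a cell type. In such bulk samples, fewer cells of a kind and less RNA per cell cannot be told apart.

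The cycle is driven by cyclins bound to cyclin-dependent kinases. In G1, D-type cyclins with Cdk4 or Cdk6, then E-type cyclins with Cdk2, phosphorylate the retinoblastoma protein and free E2F factors, which switch on the genes of replication. In G2, Cdk1 with cyclin B drives entry into mitosis, and the anaphase-promoting complex with Cdc20 ends it. A nuclear label is thinned at each division, so it records past divisions, while a transcript records the present state of a cell.

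Replication genes are known for E2F sites in their promoters, and mitosis genes for CCAAT boxes beside a CHR element. Promoters of 300 bases (250 before and 50 after the annotated start) were taken from RefSeq, build GRCm38.p6, and 37 of them matched 34 of the 44 members. Ccnd1, Ccnd2, Ccne2, Mcm4, Ccna2, Cdc25c, Wee1, Foxm1, Aurkb and Tpx2 were not matched. Both strands were searched for CCAAT, the letters of the NF-Y box, for the E2F letters TTGGCGC or TTCCCGC or TTGCCGC or TTCGCGC, and for TTTGAA or TTTAAA, the letters of the cell cycle genes homology region (CHR). E2F letters stood in 7 of 11 promoters of replication genes (63.6%), 3 of 18 of mitosis genes (16.7%), 2 of 8 of G1/S genes (25.0%) and 9.57% of all 32851 promoters. CHR letters stood in 16 of 18 promoters of mitosis genes (88.9%), 4 of 11 of replication genes (36.4%), 1 of 8 of G1/S genes (12.5%) and 27.6% of all promoters. CCAAT was found in 94.4% of the mitosis, 81.8% of the replication and 37.5% of the G1/S promoters, against 37.4% of all promoters. Different motifs were counted separately where they overlap. A match is a description of letters, and no binding was measured. The 5 promoters that follow belong to genes on which the results below turn, and capitals mark the matched letters. In Mcm3 a pair of E2F matches on opposite strands overlaps near the 3' end. Pcna and Cdc25b each hold CCAAT letters only, Cdc20 holds CCAAT and CHR letters, and Mki67 holds all 3 kinds.
Mcm3 (chr1:20820263-20820562, minus strand): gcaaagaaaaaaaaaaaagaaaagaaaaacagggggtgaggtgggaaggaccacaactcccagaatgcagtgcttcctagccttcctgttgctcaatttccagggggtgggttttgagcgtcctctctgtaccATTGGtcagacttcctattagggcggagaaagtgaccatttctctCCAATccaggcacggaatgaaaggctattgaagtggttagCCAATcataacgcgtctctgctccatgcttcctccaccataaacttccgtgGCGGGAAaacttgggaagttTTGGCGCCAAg
Pcna (chr2:132253131-132253430, minus strand): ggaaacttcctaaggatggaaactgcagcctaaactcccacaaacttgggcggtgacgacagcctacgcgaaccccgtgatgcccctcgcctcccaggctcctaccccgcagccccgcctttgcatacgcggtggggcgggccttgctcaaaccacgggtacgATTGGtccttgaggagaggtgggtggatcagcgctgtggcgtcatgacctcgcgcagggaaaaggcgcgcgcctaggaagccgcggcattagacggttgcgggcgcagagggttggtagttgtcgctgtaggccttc
Cdc25b (chr2:131186698-131186997, plus strand): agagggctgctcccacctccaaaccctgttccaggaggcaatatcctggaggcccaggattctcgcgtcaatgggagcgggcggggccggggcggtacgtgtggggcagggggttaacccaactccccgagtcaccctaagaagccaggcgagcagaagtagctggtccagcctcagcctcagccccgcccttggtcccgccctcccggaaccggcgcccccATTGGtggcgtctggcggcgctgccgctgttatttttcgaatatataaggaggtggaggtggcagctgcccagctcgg
Cdc20 (chr4:118437294-118437593, minus strand): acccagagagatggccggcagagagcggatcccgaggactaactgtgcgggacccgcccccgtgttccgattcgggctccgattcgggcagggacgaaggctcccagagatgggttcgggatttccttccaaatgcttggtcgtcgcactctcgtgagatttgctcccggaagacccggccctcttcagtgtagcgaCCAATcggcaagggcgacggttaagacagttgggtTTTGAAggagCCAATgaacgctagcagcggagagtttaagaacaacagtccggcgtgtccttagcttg
Mki67 (chr7:135716330-135716629, minus strand): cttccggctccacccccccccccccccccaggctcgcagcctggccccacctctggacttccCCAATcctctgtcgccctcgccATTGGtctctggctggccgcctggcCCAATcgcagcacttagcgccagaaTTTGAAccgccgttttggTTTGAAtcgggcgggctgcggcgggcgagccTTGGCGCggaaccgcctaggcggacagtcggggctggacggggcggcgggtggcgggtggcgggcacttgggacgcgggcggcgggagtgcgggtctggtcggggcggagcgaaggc

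No member differed between GFP+ and GFP- cells by the test. The log2 ratios of the 5 arrays, GFP+ over GFP-, were tested against 0 with limma across all genes. Limma called 0 of the 37 members at an adjusted p of 0.05, as it called 0 of all 17422 genes (0.0%), and the lowest adjusted p among the members was 0.825. Without adjustment 2 members passed 0.05, Ccne2 (GFP+ higher) and Cdc25b (GFP+ lower), against 4.94% of all genes (3.19% higher, 1.76% lower). The direction is likely rather than stated: it rests on the labels, which put GFP+ in Cy5, and on the convention that the second intensity of these tables is Cy5. If it is the opposite, every sign turns. Means lay above 0 for 18 of the 37 members, against 49.8% of all genes tested, and the median of the member means was -0.03, against -0.003 for all genes. The 95% interval of a member's mean, without adjustment, reached, in the median, 1.30 log2 units to each side of it, against 1.51 for all genes. A call after adjustment needs a larger difference at the same spread, and Cdc25b, with a mean of -2.11, was not called. The mean reached at least 2-fold for 10 members, against 25.9% of all genes. GFP+ was the higher for 4 of them (Ccnd3, Ccne2, Cdk4 and Pcna), against 13.4%, and the lower for 6 (Ccnd1, Cdc20, Cdc25b, Cdc25c, E2f1 and Tk1), against 12.6%.

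Large differences were common on single arrays, among members as among all genes. A ratio of at least 2-fold was found for 21, 16, 15, 21 and 19 of the 37 members on replicates 1 to 5, against 49.7%, 47.9%, 42.0%, 48.0% and 48.2% of all genes. The median SD of a member over the 5 arrays was 1.11, from 0.40 for Top2a to 4.79 for Ccnd1, against a median of 1.45 for all genes tested. The same sign on all 5 arrays was found for 5 members, against 7.62% of all genes: Ccne2, Mcm3, Pcna and Kif11 with GFP+ higher and Cdc25b with GFP+ lower. Over all genes 4.71% were higher and 2.91% lower on all 5 arrays.

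**Figure D1:**
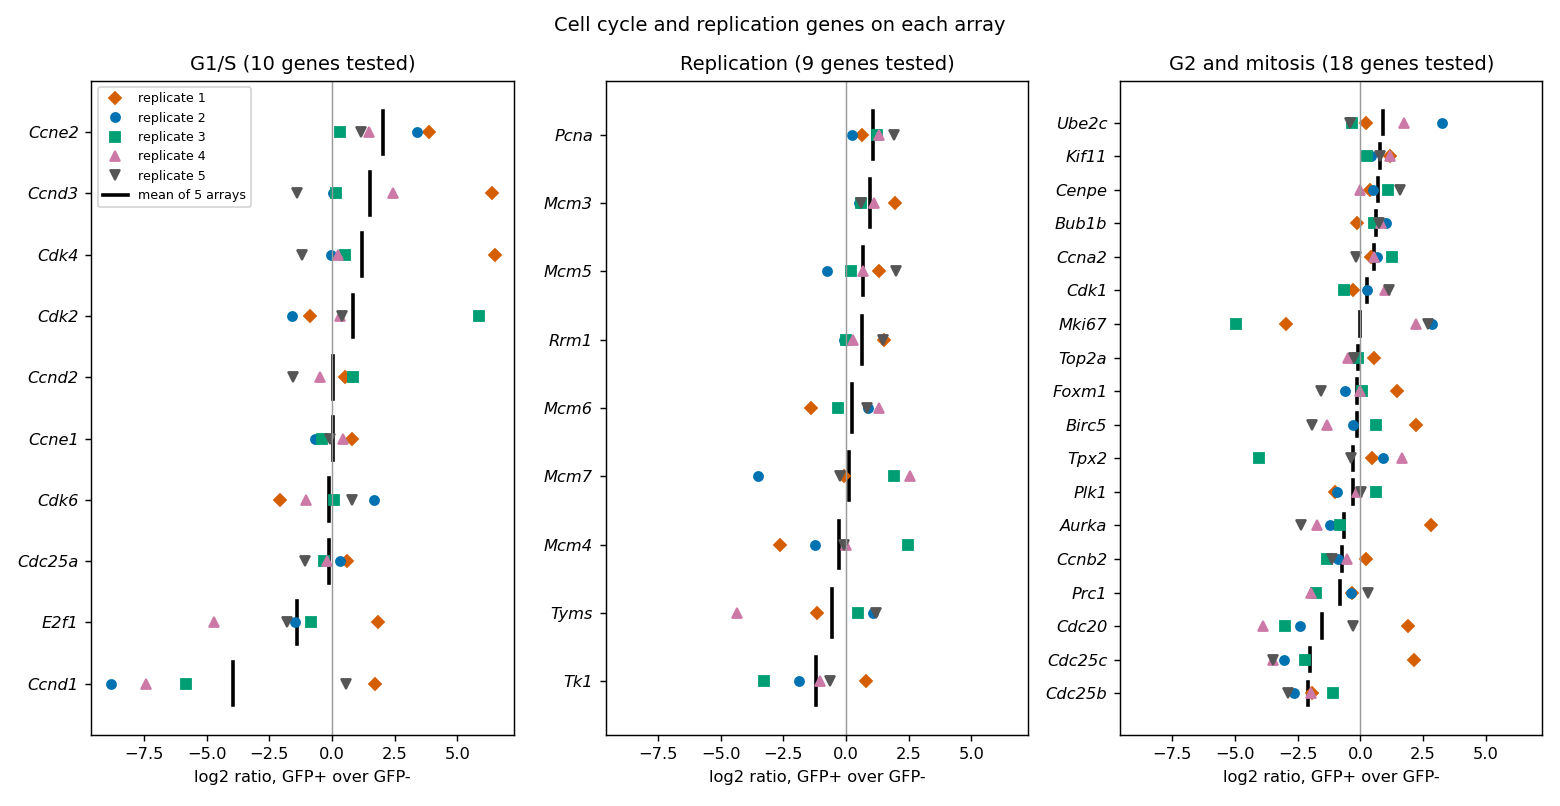
Log2 ratio of GFP+ over GFP- (horizontal axis) for the 37 tested members on each of the 5 arrays, in 3 panels by role and ordered by the mean (black bar). Most genes lie on both sides of 0, Ccnd1 spans from -8.83 to 1.71, and Cdc25b is below 0 on all 5 arrays.

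Replicate 1 went against the other arrays over all genes. Across all genes, which are not independent replicates, its ratios correlated with those of the other 4 arrays at -0.154 to -0.0592 (Pearson), while replicates 2 to 5 correlated with each other at 0.0495 to 0.201. Across the 37 members the values were -0.325 to -0.016 and 0.0509 to 0.633. Without Ccnd1 the member values for replicate 1 were -0.334 with replicate 5 and -0.0458, 0.00491 and 0.0342 with replicates 2, 3 and 4, so most of the opposition among members lay with replicate 5. Among replicates 2 to 5 they ran from -0.076 to 0.522. Members above their channel's background numbered 34, 39, 36, 37 and 39 of 44 in GFP+ cells and 37, 33, 35, 30 and 33 of 44 in GFP- cells on replicates 1 to 5, a probe counting as above background from 3 times the negative control probe. The share of all probes above background was 68.8%, 66.7%, 59.3%, 67.4% and 72.4% in GFP+ and 75.2%, 59.0%, 58.5%, 57.6% and 59.8% in GFP- cells, so that members and all probes alike were detected more often in GFP+ on replicates 2 to 5 and less often on replicate 1. The part of detection in the ratios was not tested. Markers of principal cells turned with replicate 1 as well: all 8 of 8 were above background in some channel, their median log2 ratio was -3.46 on replicate 1 and 0.43 to 4.50 on the others, and their summed level ran from 2330 to 23800 times the negative control in GFP+ and from 610 to 39400 times in GFP- cells. Median marker ratios also had other patterns. Those of the thick ascending limb were 0.88, -0.72, -2.14, -0.25 and -1.87, those of interstitial fibroblasts 0.35, -0.25, -0.53, -0.93 and -0.61, and those of pericytes 0.34, -0.46, -0.05, -0.78 and -0.64. Endothelial markers had 0.80, -1.17, 0.004, -1.18 and -1.35. All 4 lists were above 0 on replicate 1, and, apart from the endothelial value near 0 on replicate 3, below 0 on the others. Of their tested markers, 0 of 4 thick limb, 3 of 7 fibroblast, 1 of 5 pericyte and 1 of 5 endothelial means lay above 0. The summed levels of these lists ran from 12100 to 46700, 172 to 337, 1220 to 5750 and 77.7 to 118 times the negative control in GFP+ cells, and from 19900 to 75000, 213 to 2140, 1290 to 9740 and 105 to 450 times in GFP- cells, in the order thick limb, fibroblast, pericyte and endothelium. Of their 4, 7, 6 and 7 markers, in the same order, 4, 7, 5 and 7 were above background in some channel, with Pdgfrb of the pericyte list on no array. The remaining lists had other signs. Median ratios were 0.80, -0.44, 0.54, 0.34 and 0.12 for urothelium and -0.40, -0.27, 3.55, 1.86 and 0.80 for thin limb. Intercalated cells had -1.86, 0.86, -0.27, 0.96 and 1.90, and erythroid cells 4.22, -0.84, -2.68, -3.57 and 0.83. Macrophages had -0.59, 0.23, 0.64, 0.31 and -0.75, lymphocytes -0.02, 0.08, -0.38, -0.78 and -0.16, and proximal tubule -0.66, -0.12, 0.24, 0.14 and -0.66. The part of these cell types in the results below was not tested. Markers of cell types that can divide in adult tissue were also present. The 6 macrophage markers on the array summed to between 191 and 460 times the negative control in GFP+ and between 377 and 3380 times in GFP- cells, and the 8 lymphocyte markers to between 337 and 477 times in GFP+ and between 370 and 1470 times in GFP- cells. All 14 were above background in some channel, 0 of them passed limma over all genes, and their part in the results below was not tested.

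Among the G1/S genes Ccnd1 and Ccnd3, which encode D-type cyclins, had the highest SD over the arrays. Ccnd1 encodes cyclin D1, the cyclin that couples growth signals to the start of the cycle. Its single probe read 4436, 60.5, 127, 36.8 and 29.5 times the negative control in GFP+ cells on replicates 1 to 5, against 1601, 23010, 8737, 4313 and 14.3 times in GFP- cells. On replicates 2, 3 and 4 the GFP- cells were bright and the GFP+ cells dim, on replicate 1 both were bright, and on replicate 5 both were dim, so the groups overlap. The log2 ratios were 1.71, -8.83, -5.81, -7.43 and 0.55, with a mean of -3.96 ± 4.79 (SD, n = 5; 95% interval -7.99 to 0.07; limma unadjusted p 0.0532, adjusted p 0.825). Without replicate 1 the mean was -5.38 ± 4.14 (SD, n = 4; limma unadjusted p 0.0182, adjusted p 0.362). Ccnd3, for cyclin D3, had 1541, 35.3, 41.5, 1247 and 50.9 times the negative control in GFP+ cells, against 28.5, 27.7, 48.1, 147 and 88.8 times in GFP- cells. It was bright in the GFP+ cells of replicates 1 and 4 alone, with log2 ratios of 6.40, 0.05, 0.15, 2.45 and -1.38 (mean 1.54 ± 3.05, SD, n = 5). Ccnd2, for cyclin D2, had 0.03 ± 1.03 (SD, n = 5) on its brightest probe, but its second probe, at -1.71 on average, read 4.29 on replicate 1 and -9.06 on replicate 5, where the brightest probe read 0.52 and -1.56. The remaining probe of Ccnd2 had 0.47, 1.48, 0.49, 0.62 and 0.24, above 0 on all 5 arrays, with a mean of 0.66.

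Of the kinases that partner these cyclins, Cdk4 and Cdk2 each had 1 high array. Cdk4 read 1757, 104, 10.9, 16.4 and 12.9 times the negative control in GFP+ cells, against 29.9, 84.0, 8.07, 10.3 and 22.8 times in GFP- cells. Only the GFP+ cells of replicate 1 were far above the rest, and the log2 ratios were 6.50, -0.03, 0.50, 0.26 and -1.19 (mean 1.21 ± 3.03, SD, n = 5). Without replicate 1 the mean of Cdk4 was -0.12 ± 0.75 (SD, n = 4). Cdk2, the kinase of cyclin E, had log2 ratios of -0.87, -1.60, 5.86, 0.34 and 0.40, and was above background on 4 of 5 arrays in each channel. On replicate 3 this probe read 598 times the negative control in GFP+ and 12.7 times in GFP- cells. The other Cdk2 probe, which was not tested, read 0.84 and 0.73 times there. It was above background on replicate 4 alone, at 108 and 21.4 times. Cdk6 had -0.11 ± 1.48 (SD, n = 5), and of its 3 tested probes the second lay below 0 and the third above 0 on all 5 arrays. The third was above background in GFP- cells on replicate 1 alone, at 115 times the negative control against 64.4 times in GFP+ cells. On replicate 4 it was above background in neither channel. It passed the filter through GFP+ cells, so its sign is not independent of the filter.

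The E-type cyclins open the S phase. Ccne2, for cyclin E2, read 98.8, 75.2, 6.96, 21.5 and 17.6 times the negative control in GFP+ cells, against 9.46, 4.27, 5.68, 4.36 and 4.00 times in GFP- cells. It was higher in GFP+ cells on each array, and the groups overlap through replicate 3. Its log2 ratios were 3.86, 3.41, 0.32, 1.49 and 1.15, with a mean of 2.05 ± 1.52 (SD, n = 5; 95% interval 0.50 to 3.60; limma unadjusted p 0.0170, adjusted p 0.825). Without replicate 1 the mean was 1.60 ± 1.31 (SD, n = 4; limma adjusted p 0.430). Its other probe was not tested, because it did not pass the filter on dim probes, so Ccne2 rests on 1 probe. Ccne1, for cyclin E1, had 0.03 ± 0.61 (SD, n = 5) on its brightest probe. Its second probe had 0.15, 0.47, 1.45, 2.62 and 0.99, above 0 on all 5 arrays, with a mean of 1.13. Cdc25a, the phosphatase that activates Cdk2, had -0.13 ± 0.64 (SD, n = 5). E2f1, a transcription factor of replication genes, had 1.84, -1.49, -0.82, -4.70 and -1.81 (mean -1.39 ± 2.34, SD, n = 5; without replicate 1, -2.20 ± 1.71, SD, n = 4; limma adjusted p 0.403). Its second probe had the opposite sign on every array, at -0.42, 2.06, 1.86, 1.26 and 0.51, so the E2f1 values depend on the probe.

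**Figure D2:**
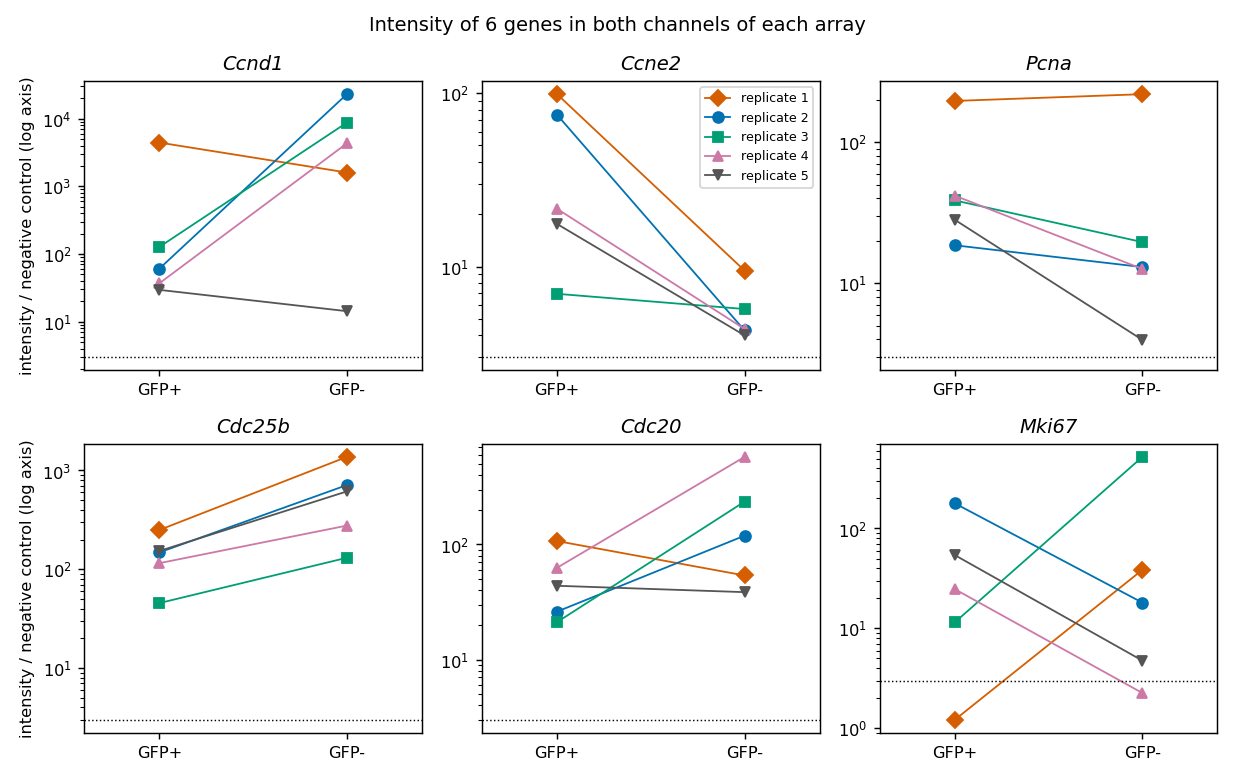
Intensity over the negative control probe of the same channel (log axis, dotted line at 3) of 6 genes in GFP+ and GFP- cells, with a line joining both channels of each array. Ccne2 and Cdc25b slope the same way on all 5 arrays, whereas the lines of Ccnd1, Cdc20 and Mki67 cross.

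The replication genes lay slightly above 0 in the median. Pcna is the sliding clamp that holds DNA polymerase on its template. It read 197, 18.6, 38.7, 41.9 and 28.2 times the negative control in GFP+ cells, against 219, 13.0, 19.6, 12.6 and 3.97 times in GFP- cells. On replicate 1 the level set against the negative control was higher in GFP-, while the normalized ratio was above 0. The negative control is a single probe that reads differently in the 2 channels, so the sign of a ratio was taken from the normalized values. The log2 ratios of Pcna were 0.63, 0.22, 1.21, 1.32 and 1.89, all above 0, with a mean of 1.06 ± 0.65 (SD, n = 5; 95% interval -0.01 to 2.12; limma unadjusted p 0.0511, adjusted p 0.825). Without replicate 1 the mean was 1.16 ± 0.70 (SD, n = 4; limma adjusted p 0.435).

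The Mcm proteins 2 to 7 form the ring of the replicative helicase. Mcm3 had log2 ratios of 1.94, 0.51, 0.60, 1.12 and 0.59, above 0 on all 5 arrays, with a mean of 0.95 ± 0.60 (SD, n = 5; limma unadjusted p 0.0684, adjusted p 0.825). Without replicate 1 it had 0.70 ± 0.28 (SD, n = 4; limma adjusted p 0.503). The other Mcm3 probe was above background in no channel of any array and was not tested, so Mcm3 rests on 1 probe. The other tested subunits of the ring had values on both sides of 0: Mcm5 had 0.69 ± 1.05, Mcm6 0.25 ± 1.11, Mcm7 0.12 ± 2.37 and Mcm4 -0.30 ± 1.88 (SD, n = 5). Mcm7 alone ran from -3.52 on replicate 2 to 2.55 on replicate 4. Mcm2 was not above background in any channel of any array and was not tested.

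The enzymes that supply nucleotides gave no common direction. Rrm1, the large subunit of ribonucleotide reductase, had 0.62 ± 0.79 (SD, n = 5). It was above background on 3 arrays in GFP+ and on 1 in GFP- cells. The small subunit Rrm2 was not tested, since it was above background only in GFP+ cells of replicate 2, at 20.5 times the negative control, and in GFP- cells of replicate 1, at 13.6 times. Tyms, thymidylate synthase, had -4.35 on replicate 4 and between -1.17 and 1.19 on the others. The other 2 tested probes of Tyms had means of -0.19 and -0.21, and on no array did all 3 have the same sign. Tk1, thymidine kinase, was higher in GFP+ cells on replicate 1 (0.79) and lower on replicates 2 to 5, from -0.66 to -3.27. Its mean was -1.22 ± 1.50 (SD, n = 5; limma adjusted p 0.825), and without replicate 1 it was -1.72 ± 1.15 (SD, n = 4; limma unadjusted p 0.0279, adjusted p 0.396).

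Cdc25b had the lowest p of the members. Cdc25 phosphatases activate cyclin-dependent kinases, and Cdc25b acts at the entry into mitosis. Its brightest probe read 250, 148, 45.5, 115 and 153 times the negative control in GFP+ cells, against 1373, 711, 131, 277 and 614 times in GFP- cells. On each array the GFP+ cells were dimmer, although the groups overlap across arrays. The log2 ratios were -1.95, -2.63, -1.09, -1.98 and -2.89, with a mean of -2.11 ± 0.70 (SD, n = 5; 95% interval -3.19 to -1.02; limma unadjusted p 0.00263, adjusted p 0.825). Without replicate 1 the mean was -2.15 ± 0.80 (SD, n = 4; limma adjusted p 0.326). The other 2 tested probes of Cdc25b did not repeat it array by array. One had 1.23, 0.53, 0.28, 0.03 and -3.10, and the other had -3.53, 0.23, -0.003, 0.72 and -3.80. All 3 probes had the same sign on replicate 5 alone.

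Several mitosis genes were lower in GFP+ cells on replicates 2 to 5 and higher on replicate 1. Cdc25c, a phosphatase of Cdk1, read 94.8, 21.2, 19.3, 32.6 and 27.2 times the negative control in GFP+ cells, against 39.2, 153, 121, 267 and 209 times in GFP- cells. The log2 ratios of Cdc25c were 2.15, -3.06, -2.21, -3.50 and -3.49, so replicate 1 stood apart from 4 close values. The mean was -2.02 ± 2.39 (SD, n = 5; limma unadjusted p 0.0629, adjusted p 0.825), and without replicate 1 it was -3.06 ± 0.61 (SD, n = 4; limma unadjusted p 0.000734, adjusted p 0.326). Its second probe had 1.53, -0.80, -0.60, -1.72 and 0.21, the same sign as the first on 4 of 5 arrays. That second probe was above background in neither channel on replicates 3 and 5, and in 1 channel only on the others. Cdc20, the activator of the anaphase-promoting complex, read 107, 26.1, 21.2, 62.8 and 43.8 times the negative control in GFP+ cells, against 53.8, 119, 236, 577 and 38.5 times in GFP- cells. Its log2 ratios were 1.91, -2.42, -3.01, -3.90 and -0.30 (mean -1.54 ± 2.34, SD, n = 5; limma adjusted p 0.825; without replicate 1, -2.41 ± 1.53, SD, n = 4; limma adjusted p 0.354). Aurka, the centrosomal Aurora kinase, had 2.80, -1.23, -0.80, -1.72 and -2.37 (mean -0.66 ± 2.02, SD, n = 5; limma adjusted p 0.866; without replicate 1, -1.53 ± 0.67, SD, n = 4; limma adjusted p 0.362). Ccnb2, for cyclin B2, had 0.23, -0.91, -1.34, -0.55 and -1.14.

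The same sign on replicates 2 to 5 was found for 13 of 37 members, against 25.6% of all genes. GFP+ was the higher for 5 of them, against 13.0%, and the lower for 8, against 12.6%. Of the members, 7 were lower in GFP+ cells on replicates 2 to 5 and higher on replicate 1, against 9.65% of all genes: Aurka, Ccnb2, Cdc20, Cdc25c, Top2a, E2f1 and Tk1. The reverse was found for 1 member, Bub1b, which passed the filter through GFP+ cells alone, against 8.29% of all genes. Before offset and loess the log2 ratios of Top2a were 0.40, 0.17, -0.21, -0.08 and 0.20, and that of Ccnb2 on replicate 1 was -0.29. The place of Top2a and Ccnb2 among the 7 therefore depends on the normalization. Without replicate 1, limma called 0 members and 0 of all genes (0.0%), and 9 members passed 0.05 without adjustment, against 11.5% of all genes. GFP+ was the higher for 2 of these (Ccne2 and Pcna), against 5.25%, and the lower for 7 (Aurka, Ccnd1, Cdc20, Cdc25b, Cdc25c, E2f1 and Tk1), against 6.23%. The lowest adjusted p of a member was then 0.326. Replicate 1 was set apart because of its values, so these counts describe 4 arrays and support no call.

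Mki67 varied most among the mitosis genes, and both of its probes agreed on each array. The gene encodes Ki-67, the nuclear protein used to mark cycling cells. It read 1.22, 179, 11.5, 24.7 and 54.1 times the negative control in GFP+ cells, against 38.6, 18.1, 521, 2.25 and 4.76 times in GFP- cells. GFP+ cells were the brighter on replicates 2, 4 and 5 and GFP- cells on replicates 1 and 3. The log2 ratios were -2.95, 2.87, -4.97, 2.20 and 2.71 on the brightest probe and -2.08, 1.74, -3.29, 3.66 and 1.18 on the other. The mean was -0.03 ± 3.67 (SD, n = 5; limma adjusted p 0.997). Top2a, the topoisomerase that untangles chromosomes, differed little on its brightest probe, which ran from -0.49 to 0.55 (mean -0.12 ± 0.40, SD, n = 5), at 4.71 to 9.07 times the negative control in GFP+ and 3.84 to 6.65 times in GFP- cells. Mki67 and Top2a are both read as markers of cycling cells. On the brightest probes they had the same sign on replicate 3 alone. The second tested Top2a probe, at -0.60, 0.90, 1.79, 0.05 and 0.05, had the sign of Mki67 on the other 4 arrays and not on replicate 3, so the comparison depends on the probe. On replicates 4 and 5 this second probe was above background in neither channel, so its sign there carries little weight.

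The remaining mitosis genes had means between -0.83 and 0.89. Kif11, the kinesin that separates spindle poles, had 1.19, 0.41, 0.27, 1.17 and 0.80, above 0 on all 5 arrays (mean 0.77 ± 0.42, SD, n = 5; limma unadjusted p 0.107, adjusted p 0.825). Its second tested probe had -0.10 on average and was below 0 on replicates 2 and 4. Bub1b, of the spindle checkpoint, had -0.13, 1.04, 0.55, 0.82 and 0.74, and was above background on 5 arrays in GFP+ and on 2 in GFP- cells. Ccna2, for cyclin A2, had 0.54 ± 0.51, Cenpe, a kinetochore motor, 0.71 ± 0.63, and Cdk1, the mitotic kinase, 0.28 ± 0.78 (SD, n = 5). Ube2c, a ubiquitin-conjugating enzyme of the anaphase-promoting complex, had 0.22, 3.24, -0.32, 1.75 and -0.42. Tpx2, a spindle assembly factor, had 0.47, 0.90, -4.04, 1.64 and -0.38, with its lowest value on the array on which Mki67 was lowest too. Birc5, the survivin of the chromosomal passenger complex, had 2.21, -0.30, 0.60, -1.32 and -1.91. Foxm1, a transcription factor of mitotic genes, had -0.13 ± 1.11, Plk1, polo-like kinase 1, -0.29 ± 0.68, and Prc1, which bundles the midzone of the spindle, -0.83 ± 0.99 (SD, n = 5).

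The 7 members that did not pass the filter were Mcm2, Rrm2, Ccnb1, Wee1, Aurkb, Cenpa and Bub1. The brightest probe of each was above background on at most 1 array in either channel. That of Ccnb1, for cyclin B1, reached 5.74 times the negative control in GFP+ cells of replicate 5 and 16.1 times in GFP- cells of replicate 3, and a second probe of Ccnb1 reached 3.59 and 5.16 times in GFP+ cells of replicates 1 and 3. Cenpa, the centromeric histone, was at most 3.15 times the negative control in GFP+ and 3.34 times in GFP- cells. Bub1 of the spindle checkpoint reached 7.34 times in GFP+ cells of replicate 5, Wee1, the kinase that restrains Cdk1, 6.08 times in GFP+ cells of replicate 4, and neither was above background in GFP- cells. Aurkb, the Aurora kinase of the chromosomal passenger complex, was not above background in any channel. At this signal a difference in these genes was not detectable, which does not show that it is absent.

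Averaged over the arrays, the median ratio of the members was highest for replication genes and lowest for mitosis genes. On replicates 1 to 5 the median of the 9 tested replication genes was 0.63, -0.09, 0.47, 0.69 and 0.82, and that of the 18 tested mitosis genes was 0.39, -0.29, -0.50, -0.08 and -0.27. On each array the replication median lay above the mitosis median, by 0.20 to 1.09. The median of the 10 G1/S genes was 1.26, 0.008, 0.11, 0.03 and -0.56, and spread the most. The mean of the array medians was 0.50 ± 0.35 for replication, -0.15 ± 0.34 for mitosis and 0.17 ± 0.67 for G1/S genes, against 0.05 ± 0.04 for all genes tested (SD over 5 arrays). Means above 0 were found for 6 of 9 replication, 6 of 18 mitosis and 6 of 10 G1/S genes, against 49.8% of all genes. Among them, Rrm1, Ccna2, Bub1b and Cdk1 were above background on 3, 5, 5 and 4 arrays in GFP+ cells. In GFP- cells they were above it on 1, 2, 2 and 2 arrays. They passed the filter through GFP+ cells, where their means were higher, so their part in these counts and in the class medians is not independent of the filter. Without replicate 1 the mean of the array medians was 0.47 for replication, -0.28 for mitosis and -0.10 for G1/S genes. The order of replication over mitosis held on 4 of 5 arrays with no filter on dim probes, when the replication mean was 0.20 and the mitosis mean 0.003, and on 4 of 5 with only genes above background in both channels everywhere, when they were 0.07 and -0.29. In the latter setting 5 replication genes remained, and on replicate 1 the order was reversed, with a replication median of -1.17 against 0.51 for mitosis. With genes above background in both channels the G1/S mean, 0.12, was above that of replication, and with the sign of replicate 1 turned it was -0.34, below the -0.31 of mitosis, so the place of the G1/S genes depends on the setting. Replication over mitosis also held on 4 of 5 arrays with the mean of a gene's probes and with the sign of replicate 1 turned. These class values have no test, since the members were chosen by name with earlier results known. The low value of the mitosis members was not seen in the further mitosis genes described below. The median of the means was 0.15 for 48 further mitosis genes, against -0.135 for the 18 members. For 39 further replication genes it was 0.20, against 0.25 for the 9 members. On replicate 3 the further mitosis genes had the higher median, 0.13 against 0.06.

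**Figure D3:**
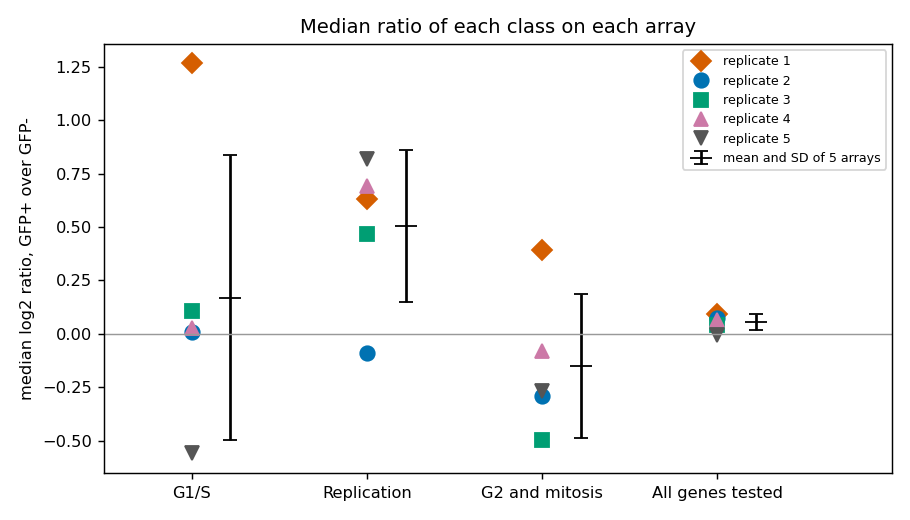
Median log2 ratio, GFP+ over GFP-, of the G1/S, replication and mitosis genes and of all genes tested, 1 symbol per array, with the mean and SD over 5 arrays beside them. Replication medians lie between -0.09 and 0.82, mitosis medians between -0.50 and 0.39, and G1/S medians between -0.56 and 1.26.

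Probes of the same gene agreed little within an array. For 12 members at least 2 probes were tested. On replicates 1 to 5 the brightest probe and the next had the same sign in 7, 5, 4, 6 and 5 of these 12 genes, which is 45.0% of 60 pairs, against 53.2% of 29985 pairs over all genes. Across the 12 genes, which are not independent replicates, the ratios of both probes correlated at 0.361, 0.0784, 0.532, 0.263 and 0.331 on replicates 1 to 5, against 0.208, 0.188, 0.216, 0.174 and 0.142 over all genes with several probes. Mki67 had the same sign on 5 of 5 arrays and Cdc25c on 4 of 5. E2f1 and Top2a had it on 0 of 5. These counts include arrays on which the second probe was above background in neither channel, replicates 3 and 5 for Cdc25c and 4 and 5 for Top2a. Single-probe members, among them Ccnd1, Pcna, Cdc20, Aurka and Tk1, have no such check, nor have members with only 1 tested probe, such as Ccne2, Mcm3 and Cdk2.

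**Figure D4:**
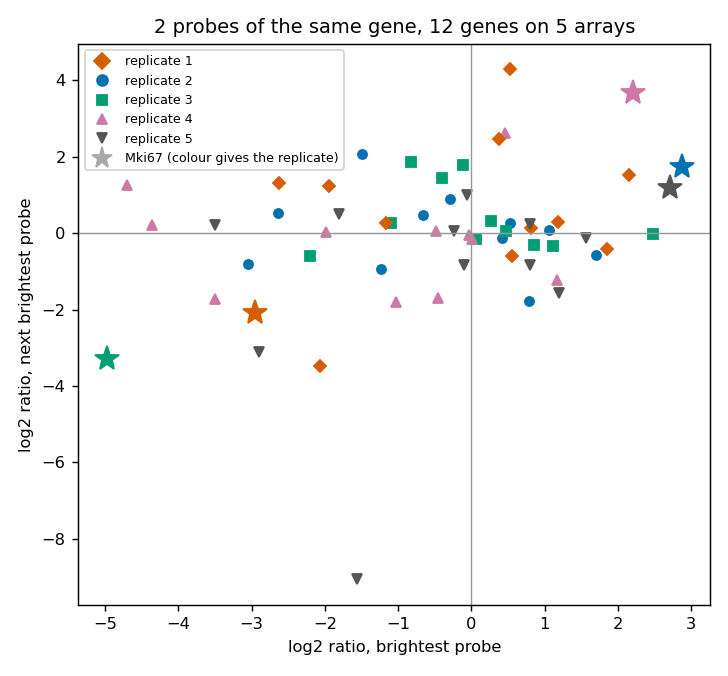
Log2 ratio of the brightest probe (horizontal) against the next brightest probe (vertical) of the same gene, for the 12 members with several tested probes on 5 arrays, 60 points in all. The 5 points of Mki67 (stars) fall in the quadrants of equal sign, and the others are spread over all 4 quadrants.

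Of 131 further genes of G1/S control, replication, mitosis and cycle inhibition, 117 were tested and limma called 0, with a lowest adjusted p of 0.825. Without adjustment 7 passed 0.05 with GFP+ higher and 4 with GFP+ lower, against 3.19% and 1.76% of all genes. These 11 are named here. Among 21 tested genes of G1/S transcription and its partners, 8 means lay above 0. E2f5, an E2F factor that acts with the pocket proteins, had -0.84, -3.53, -2.90, -4.81 and -0.99 (mean -2.61 ± 1.70, SD, n = 5), and Mnat1, a subunit of the complex that phosphorylates Cdk1 and Cdk2, had -1.55 ± 0.74 (SD, n = 5; limma unadjusted p 0.00788 and 0.0129, adjusted p 0.825 for both). Among 39 tested replication genes, 23 means lay above 0. Of the origin recognition complex, Orc4 had 2.51 ± 2.03 and Orc5 2.33 ± 2.56, with a value of 6.75 for Orc5 on replicate 1 (SD, n = 5). Uhrf1, which maintains DNA methylation behind the fork, had 1.65 ± 1.27, and Rfc5, of the clamp loader, -1.43 ± 0.96 (SD, n = 5; limma adjusted p 0.825 for each). Among 48 tested mitosis genes, 27 means lay above 0. Nusap1, a microtubule binder of the spindle, had 0.28 to 2.52 on the 5 arrays (mean 1.54 ± 0.85, SD, n = 5; limma unadjusted p 0.0161, adjusted p 0.825). Ckap5, which promotes microtubule growth, had 0.72 to 6.49 (mean 2.88 ± 2.35), and Cdc16, a subunit of the anaphase-promoting complex, 0.45 to 2.74 (mean 1.37 ± 0.96, SD, n = 5). Pkmyt1, a kinase that holds Cdk1 inactive, had 0.51, -2.63, -2.34, -2.98 and -2.11 (mean -1.91 ± 1.39, SD, n = 5). Of the 9 tested inhibitors and retinoblastoma family genes, Rbl2, which encodes the pocket protein p130 of resting cells, had 4.15, 5.10, 1.12, 0.28 and 4.04, above 0 on all 5 arrays (mean 2.94 ± 2.11, SD, n = 5; limma unadjusted p 0.00957, adjusted p 0.825). The other 8 did not pass 0.05 without adjustment, among them Cdkn1a, the inhibitor p21, with 0.93 ± 2.10, and Cdkn1b, the inhibitor p27, with -0.42 ± 0.75 (SD, n = 5).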

How the data were processed

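Per the labels' protocols, transcripts of sorted GFP+ and GFP- cells were copied by global PCR before labelling, a step that can distort ratios when few cells go in. The authors deposited, for each array, linear intensities of 2 channels from Agilent Feature Extraction, per the submitters' processing notes, with no version stated. The deposited log10 ratios were used as an alternative, and the authors' matrix of log10 ratios equals them within 0.001 at all but 0 to 3 probes an array. All arrays ran in 1 dye orientation, per the labels, and any shared dye bias stays in the ratios.

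An offset of 50 was added to both intensities and the log2 ratio of the second over the first was normalized by loess (span 0.3) within each array, without control probes and without the 14 to 41 probes that the software had marked. Probes at 3 times the negative control probe in at least 1 channel on at least 3 arrays were tested, and the brightest stood for a gene. Of 41174 probes, 33477 had 1 gene symbol, 45 several, and 7652 were unnamed here. A further 2 probes tied to members by platform annotation alone were left out. The test of each mean ratio against 0 used limma 3.58.1 under R 4.3.3 (two-sided, Benjamini-Hochberg over all genes, 0.05), a procedure tested on simulated data. The array pairs both populations. SD is over arrays, and their number limits the precision. Offset and loess together moved the members' ratios by 0.317 in the median and kept the sign of 171 of 185 values. Members, lists and tests were chosen with earlier results of these data known. All 44 members are named, and from each further list the 3 genes of lowest unadjusted p per side could be named, of which those under 0.05, Cdkn1a and Cdkn1b were. Cell type markers were read over a list, as median ratios per array and, for some lists, as summed levels and counts.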

Additional observations from a re-analysis of the deposited data

Results flagged for a closer look

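Of 40 sets of 5 array values (37 genes and 3 class medians), 3 held 1 array far from the other 4. By chance alone about 1 set in 20 would hold one. The log2 ratio of Cdk4 was 6.50 on replicate 1, against -1.19 to 0.50 on the others. The log2 ratio of Cdk2 was 5.86 on replicate 3, against -1.60 to 0.40 on the others, and its other probe was not above background on replicate 3. The log2 ratio of Cdc25c was 2.15 on replicate 1, against -3.50 to -2.21 on the others.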

How the results depend on the processing

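Limma called 0 genes and 0 members under all 16 alternatives. Genes below 0.05 without adjustment numbered 861 as reported, 1999 without replicate 1 and 2407 with its sign turned. They numbered 599 with the channels as unpaired samples (no replicate block) and 543 with genes above background in both channels on all arrays. The unpaired fit kept 0 calls, and the class medians do not depend on the fit. Of the members, 9 had an unadjusted p under 0.05 without replicate 1 and 6 with its sign turned, against 2. The replication median moved to 0.068 with genes above background in both channels, when fewer genes were tested. With the sign of replicate 1 turned the G1/S median was -0.34, and with no filter the mitosis median was 0.003. Leaving out 1 replicate gave -0.10 to 0.35 for G1/S, 0.43 to 0.65 for replication and -0.28 to -0.06 for mitosis genes, with 0 genes and 0 members called. Of single members, 4 of 37 moved by over 1 SD with the sign of replicate 1 turned, 2 with the deposited ratios and 2 with the mean of a gene's probes, and 0 under each other alternative. Many of these 0 counts were fixed beforehand. The filter settings and the unpaired fit leave a member's ratios unchanged, and leaving out 1 of 5 arrays cannot move a mean by over 1 SD. The mean changed sign for 8 of 37 members with the sign of replicate 1 turned. Leaving out replicates 1 to 5 in turn changed it for 6, 1, 5, 6 and 3 of 37 members. The signal over background limits 7 members, which were not tested.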
